A study of Mus musculus with 20 samples.

Results

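The genes described here encode the proteins of the mitochondrial ribosome, measured as RNA in the liver of adult male mice whose mothers were kept at different temperatures during pregnancy. They were chosen by name alone, as rows of the array whose platform gene symbol starts with Mrpl or Mrps and a number, pseudogenes left out, with 1 row per symbol. The rule found 76 genes among 22206 transcript clusters (the rows of the array that stand for a transcript), 48 named Mrpl and 28 named Mrps, and none had a second row. The study compared 4 groups of 5 C57BL/6NCr males aged 4 to 5 months, 1 Affymetrix array per liver, born to dams kept at 10, 18, 23 or 30 °C. Dams were acclimated before mating for 2 weeks at 18 °C and 10 °C and for 3 weeks at 30 °C, and sires were exposed for 3 days. From the day of birth all litters lived at 23 °C on the same chow, and offspring of 23 °C pairs, the standard housing temperature, were the controls. The 20 livers therefore share genotype, sex, diet and postnatal temperature. The groups differ in the temperature before birth together with the dams' acclimation and the sires' exposure, and these cannot be told apart. The labels name no litters, so p-values measure the spread between these arrays and would be too small if littermates are among them. In what follows a group goes by its dams' temperature and a mouse by its animal number.

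The mitochondrial ribosome translates the few messages of mitochondrial DNA, all of which encode subunits of the respiratory chain and ATP synthase. Its RNA comes from the mitochondrial genome, while all its proteins are made from nuclear genes in the cytosol and imported. It descends from a bacterial ribosome. Of the 76 genes, 47 encode homologues of bacterial ribosomal proteins and 28 encode proteins without one, such as Mrpl45, which ties the ribosome to the inner membrane. The remaining gene, Mrps36, carries a ribosomal name but encodes a subunit of the 2-oxoglutarate dehydrogenase complex of the citric acid cycle. The symbols also do not always give the subunit, since the proteins of Mrps18a and Mrps30 sit in the large one. Liver is rich in mitochondria, and these genes are expressed in all its cell types, so that in whole liver a change in cell makeup and a change in RNA per cell cannot be told apart.

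A RefSeq promoter window (build GRCm38.p6, 250 bases before to 50 after the start) was at hand for 67 of the 76 genes, and 64 of these had a single window. Binding motifs of factors known for nuclear genes of mitochondrial proteins were common there. The ETS core CCGGAAG, bound by GABPA, lay on either strand in 23 of the 64 windows (35.9%), against 9.12% of the 22862 windows of all genes with a single one. The motif of NRF1 lay in 13 (20.3% against 4.75%), and the YY1 motif AANATGGCG in 11 (17.2% against 2.61%). At least 1 of the 3 was in 39 windows (60.9% against 14.7%). The member windows were also richer in G and C, at 58.3% against 53.3%, and a match is a description of letters, not a binding site. The stretches of 150 bases before the start of 4 genes that recur below are given 5′ to 3′, with motif matches in capitals. That of Mrpl52 and that of Mrps22 hold an ETS core, that of Mrpl39 an NRF1 motif, and that of Mrps24 none of the 3. Those of Mrpl20 and Mrpl42, which are not printed, hold none either. The 4 printed stretches do not show how common the motifs are.
Mrpl52, chr14:54426759-54426908, plus strand: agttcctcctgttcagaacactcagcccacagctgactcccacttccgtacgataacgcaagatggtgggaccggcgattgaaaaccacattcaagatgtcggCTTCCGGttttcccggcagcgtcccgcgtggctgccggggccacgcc
Mrps22, chr9:98601680-98601829, minus strand: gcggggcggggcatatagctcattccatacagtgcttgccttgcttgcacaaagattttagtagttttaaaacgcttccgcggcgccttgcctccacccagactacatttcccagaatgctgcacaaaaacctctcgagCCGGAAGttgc
Mrpl39, chr16:84735245-84735394, minus strand: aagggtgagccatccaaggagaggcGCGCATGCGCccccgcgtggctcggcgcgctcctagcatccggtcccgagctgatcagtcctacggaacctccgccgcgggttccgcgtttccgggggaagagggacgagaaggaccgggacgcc
Mrps24, chr11:5707702-5707851, minus strand: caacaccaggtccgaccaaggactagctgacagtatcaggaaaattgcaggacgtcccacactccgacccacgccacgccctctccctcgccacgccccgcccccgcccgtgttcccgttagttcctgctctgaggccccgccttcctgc

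All 76 genes had mean log2 values above 3.90, the 95th percentile of olfactory receptor genes, which liver is not known to use. Only Mrpl54 (4.10) lay below the negative control rows, which averaged 4.40 to 4.75 per array, so it may not be above background, and Mrpl36 (4.83) lay close to them. Hepatocyte markers such as Alb were bright in every array, with list means between 18.54 and 18.74. Within groups the 76 genes had a median SD of 0.23 on the log2 scale, against 0.292 over all clusters. The SD ran from 0.112 for Mrpl36 to 0.404 for Mrps25, whose 30 °C values alone spanned 6.47 to 8.24 (both named because they are the ends of the range). The median spread between the highest and the lowest of the 4 group means was 0.237, and 0.297 over all clusters. Of the 22206 clusters 9742 had a mean under 3.90, so neither comparison is with genes of like signal.

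No mitochondrial ribosomal gene passed the test in any comparison of maternal temperatures. In limma's fit over all 22206 clusters, with Benjamini-Hochberg adjustment over all of them, 0 of 76 stood at an adjusted p under 0.05 between 10 °C and 23 °C offspring, where 0.00901% of all clusters (2) did, a number that was 22 without 23 °C animal 23 and 0 without most other single arrays. The count was also 0 in the other 5 pairwise comparisons, in the 4-group F-test and for the slope on maternal temperature, in each of which 0% of all clusters passed. The nearest were Mrps21 and Mrpl33 between 10 °C and 23 °C, at adjusted p = 0.184 and 0.194. The largest fitted difference of any member in any pair of groups was 1.48-fold, for Mrps24 between 10 °C and 18 °C. The median standard error of a difference was 0.155 in log2, and the 95% intervals leave room for larger differences. Between 10 °C and 23 °C their farthest ends were 1.82-fold lower, for Mrpl33, and 1.72-fold higher, for Mrpl4.

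As a list, the genes lay slightly lower in offspring of the coldest dams. Each gene was expressed as its deviation from its own mean over the 20 arrays, and the 76 deviations were averaged per array. The mean was -0.029 in animal 2, -0.021 in animal 4, -0.054 in animal 5, -0.15 in animal 6 and -0.060 in animal 8 of the 10 °C group, all below 0. In the 23 °C group it was 0.033 in animal 1, 0.14 in animal 2, -0.025 in animal 15, -0.023 in animal 17 and -1.54e-05 in animal 23. The groups overlapped, since 10 °C animal 4 lay above 23 °C animals 15 and 17. In the 18 °C group it was -0.0062, 0.067, 0.093, 0.11 and -0.046 in animals 1, 3, 4, 5 and 7, and in the 30 °C group -0.081, -0.036, -0.022, 0.049 and 0.062 in animals 4 to 8. The pooled SD between single arrays of a group was 0.061. The group means ran from -0.062 at 10 °C to 0.044 at 18 °C, and the distances between them were not tested.

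**Figure D1:**
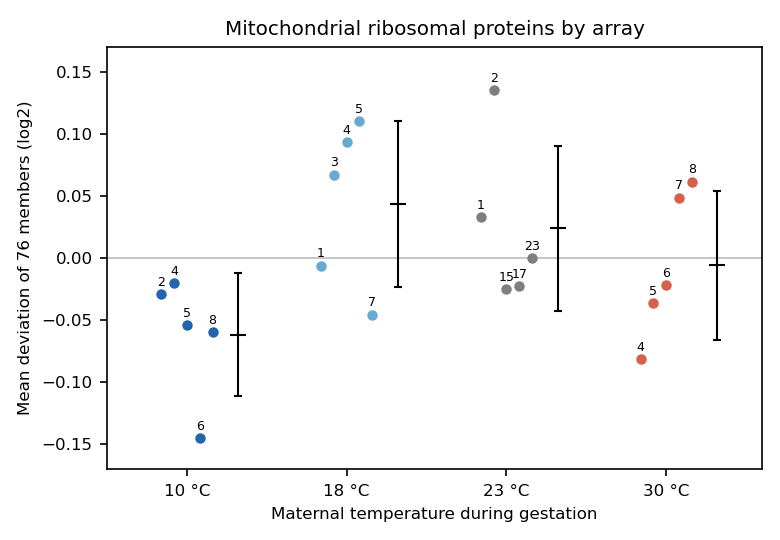
Mean deviation of the 76 mitochondrial ribosomal genes in each array (log2, vertical axis) by maternal temperature (horizontal axis). Points are arrays labelled with the animal number, and the black marks give the group mean ± SD (n = 5). The 10 °C arrays lie between -0.15 and -0.021 and overlap with every other group.

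Between 10 °C and 23 °C offspring the median difference over the 76 genes was -0.12, against 0.00 over all clusters, and 50 of 76 lay below 0 (65.8%, against 49.6% of all clusters). At an unadjusted p under 0.05 stood 7 lower genes (9.21%, against 5.91% of all clusters) and 3 higher (3.95% against 5.73%). The 7 became 3 without 10 °C animal 4, and 4 without 10 °C animal 5 or 23 °C animal 2. They became 8 without 23 °C animal 17, and 2 with the background control rows in the fit as a covariate. The 3 higher became 1 without 23 °C animal 1 or 15 and 0 with that covariate. For such refits, here and in the other comparisons, the F-test and the slope, the share of all clusters is not given. Their counts therefore cannot show whether a change was particular to the 76 genes. The background control rows averaged 3.71 ± 0.018 in 10 °C and 3.65 ± 0.023 in 23 °C arrays (SD, n = 5), and with them in the fit the median was -0.080. It was -0.077 without 10 °C animal 8. Macrophage markers had overlapping list means of 7.65 to 8.14 in 10 °C and 7.01 to 7.90 in 23 °C arrays. In limma's fit 0 of them stood at an adjusted p under 0.05. Of these 11 markers 9 lay higher, and none was below 3.90. Between 18 °C and 23 °C 9 of the 11 also lay higher, where the median of the 76 genes was 0.019. In the control rows the lowest 10 °C array (3.682) lay above the highest 23 °C array (3.679). Between these groups the part of the control rows and that of maternal temperature therefore cannot be told apart. The part of macrophages was not tested.

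Between 10 °C and 18 °C offspring 56 of 76 genes lay below 0 (73.7%, against 49.9% of all clusters), with a median of -0.089 over the 76. At an unadjusted p under 0.05 stood 5 lower (6.58% against 3.79%) and 0 higher (0% against 4.31%). The 5 became 3 without 10 °C animal 6 or 18 °C animal 3, and 7 without 18 °C animal 1. With the background control rows as a covariate 6 stood lower, and the median was -0.091. For 10 °C against 30 °C the median was -0.044 with 45 of 76 lower (48.9% of all clusters were), and 5 stood at an unadjusted p under 0.05 as lower (6.58% against 3.13%) and 0 as higher (0% against 3.63%). Here the 5 became 3 without 10 °C animal 2, 4 or 6, and 1 without 30 °C animal 7 or with the background control rows in the fit. The 3 comparisons share the 10 °C arrays, so they are not separate evidence. Of the 76 genes, 33 had the lowest of their 4 group means at 10 °C (43.4%, against 26.1% of all clusters) and 29 the highest at 18 °C (38.2% against 25.6%).

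In offspring of mildly cooled and of warmed dams the medians lay nearer to 0 against the controls. Between 18 °C and 23 °C the median was 0.019, with 36 of 76 below 0 (50.4% of all clusters were), and 5 higher (6.58% against 4.36% of all clusters) and 3 lower genes (3.95% against 4.89%) at an unadjusted p under 0.05. These became 2 and 1 without 18 °C animal 4, 3 and 1 without 23 °C animal 1 or 2, 4 and 1 without 23 °C animal 15, and 1 and 0 with the background control rows as a covariate. Between 30 °C and 23 °C the median was -0.030, with 41 of 76 below 0 (51.3% of all clusters were) and 1 gene in each direction (1.32%, against 2.21% higher and 2.63% lower). Leaving out single arrays moved these counts between 1 and 4 higher and between 0 and 4 lower, with 4 of each without 30 °C animal 7. Between 18 °C and 30 °C it was 0.038, with 28 of 76 below 0 (49.4% of all clusters were), and 3 higher (3.95% against 4.21%) and 1 lower (1.32% against 4%), counts that ran from 2 to 6 and from 0 to 2 when single arrays were left out, with 6 higher without 30 °C animal 8.

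**Figure D2:**
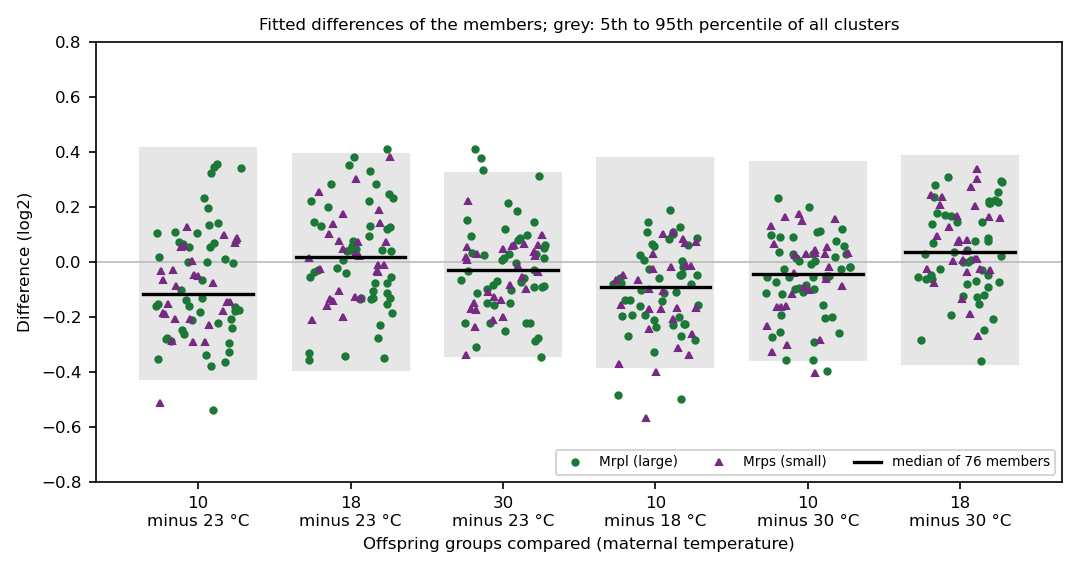
Fitted log2 differences (vertical axis) of the 76 genes in the 6 pairs of groups (horizontal axis), circles for Mrpl and triangles for Mrps genes, with the median of the 76 as a black line and the 5th to 95th percentile of all clusters in grey. The black lines lie between -0.12 and 0.038, and 74 of the 76 genes lie inside the grey range for 10 °C against 23 °C.

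Single arrays carried many of the extremes. Animal 2 of the 23 °C group held the highest of the 20 values for 14 of the 76 genes, animal 6 of the 10 °C group the lowest for 16 and animal 4 of the 30 °C group the lowest for 12. Without 23 °C animal 2 the median between 10 °C and 23 °C was -0.088, and without 10 °C animal 6 it was -0.081, with 45 genes lower.

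**Figure D3:**
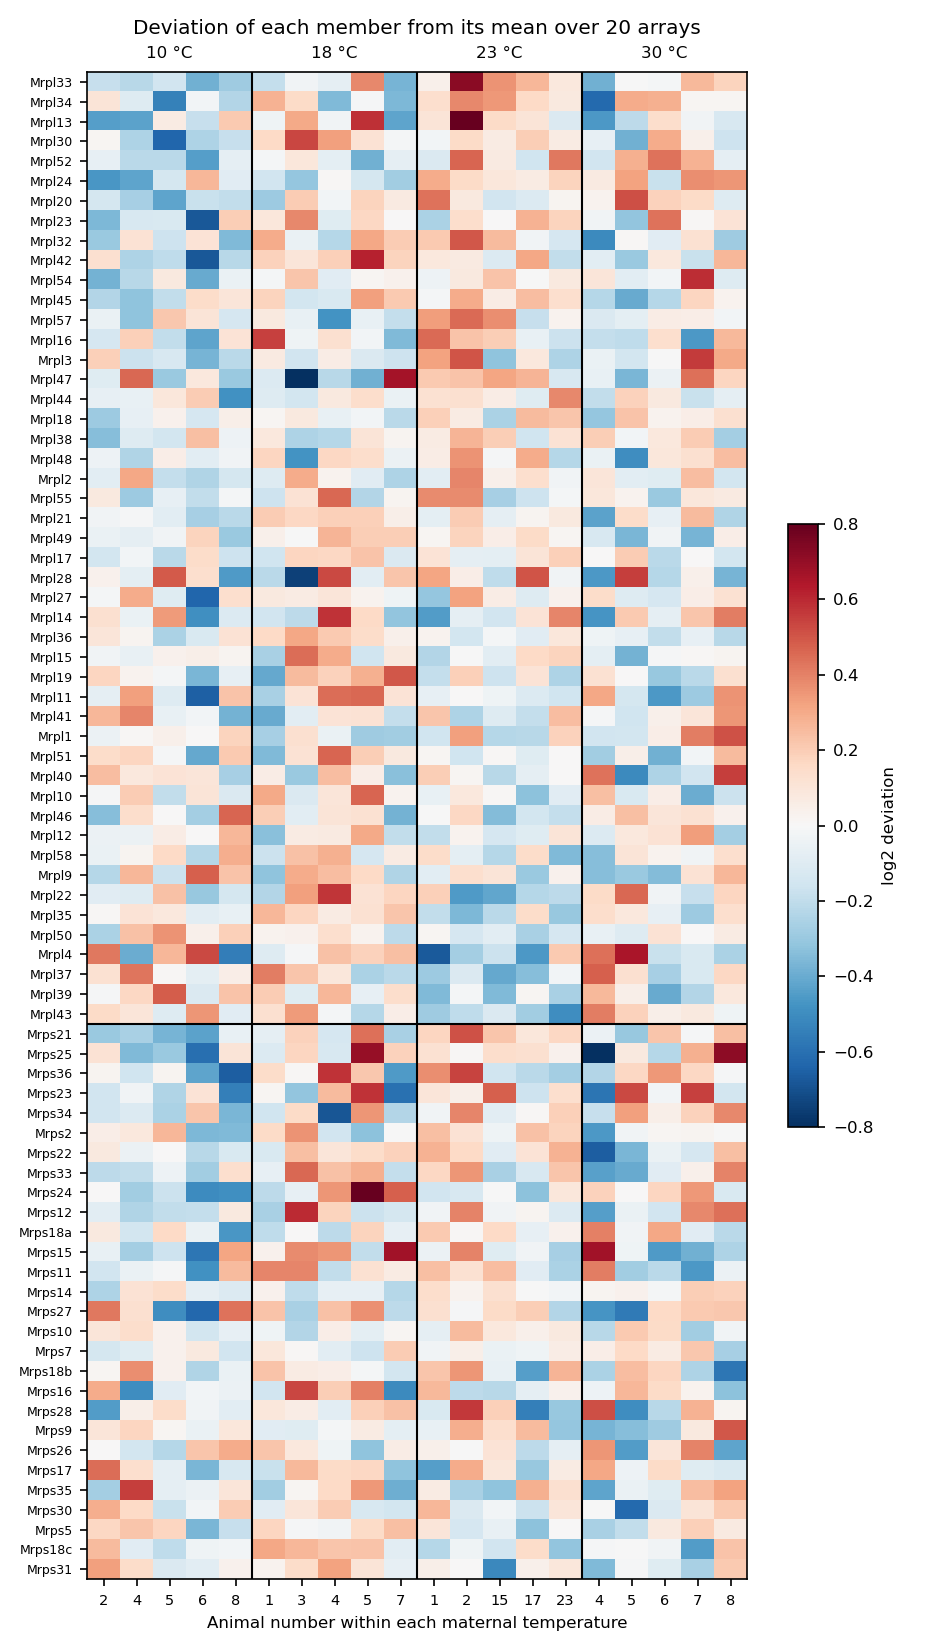
Deviation of each of the 76 genes from its own mean over 20 arrays (log2, colour scale) with genes in rows, Mrpl above Mrps, each ordered by the difference between 10 °C and 23 °C, and arrays in columns by maternal temperature and animal number; values beyond the ends of the scale take its end colours. The column of 23 °C animal 2 holds the highest value of 14 genes and that of 10 °C animal 6 the lowest of 16.

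Split by symbol, which for Mrps18a, Mrps30 and Mrps36 does not give the subunit, both classes had medians below 0 in 10 °C against 23 °C. The median was -0.14 over the 48 Mrpl genes, 30 of them lower, and -0.081 over the 28 Mrps genes, 20 of them lower. Genes with a bacterial homologue had a median of -0.10 with 34 of 47 lower, and those without one -0.11 with 15 of 28 lower. For 10 °C against 18 °C the same classes stood at -0.14 (38 of 47 lower) and -0.035 (17 of 28 lower). The differences between classes were not tested.

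Among genes of the small subunit, Mrps21 had the smallest p between 10 °C and 23 °C. It encodes a homologue of a small bacterial protein of that subunit. Its log2 values were 9.57, 9.61, 9.50, 9.44 and 9.81 in 10 °C animals 2, 4, 5, 6 and 8, and 10.04, 10.38, 10.09, 9.96 and 10.03 in 23 °C animals 1, 2, 15, 17 and 23. All 10 °C livers lay below all 23 °C livers. The difference was -0.51 ± 0.15 (SE, n = 5 per group, 1.43-fold lower at 10 °C, limma adjusted p = 0.184). Values were 9.79, 10.05, 9.74, 10.31 and 9.61 in 18 °C animals 1, 3, 4, 5 and 7, and 9.82, 9.57, 10.09, 9.86 and 10.11 in 30 °C animals 4 to 8. Both of these groups overlapped with the other groups.

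Mrps24 encodes the homologue of a bacterial protein at the entry of the messenger RNA channel, and it led the F-test over the 4 groups (limma adjusted p = 0.413), in which 7 of 76 genes stood at an unadjusted p under 0.05 (9.21%, against 9.86% of all clusters), and 4 with the background control rows as a covariate. Its values were 8.34, 8.06, 8.17, 7.83 and 7.85 in 10 °C and 8.13, 8.27, 8.69, 9.17 and 8.82 in 18 °C offspring, in the same order of animals. The 18 °C group was split, with animals 1 and 3 inside the 10 °C range and 3 livers above every 10 °C value. The difference was -0.57 ± 0.17 (SE, n = 5 per group, limma adjusted p = 0.44). In 23 °C offspring the values were 8.19, 8.21, 8.33, 8.01 and 8.43, and in 30 °C offspring 8.53, 8.34, 8.51, 8.68 and 8.22. Mrps22, a mitochondrial protein without a bacterial homologue whose human gene is mutated in a respiratory chain disease, was the nearest lower gene between 30 °C and 23 °C. It differed by -0.34 ± 0.15 there, with means of 8.79 ± 0.15 at 23 °C and 8.46 ± 0.34 at 30 °C (SD, n = 5), at limma adjusted p = 0.978.

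The decoding protein Mrps12 averaged 7.27 ± 0.13, 7.43 ± 0.35, 7.44 ± 0.20 and 7.43 ± 0.37 (SD, n = 5) at 10, 18, 23 and 30 °C, no farther apart than the SD within the 18 °C or 30 °C group. The genes Mrps18a, Mrps18b and Mrps18c encode 3 relatives of 1 bacterial protein. Mrps18a averaged 9.19, 9.22, 9.35 and 9.35 in that order of temperature, and Mrps18b 10.25, 10.26, 10.30 and 10.10. Mrps18c averaged 9.69, 9.90, 9.59 and 9.66, with 18 °C above 23 °C by 0.30 ± 0.14 (SE, limma adjusted p = 0.51). The dehydrogenase gene Mrps36 averaged 6.04 at 10 °C and 6.33 to 6.38 in the other groups, with SDs of 0.22 to 0.37. Mrps30 differed by 0.18 between 10 °C and 30 °C and Mrps14 by -0.19 between 18 °C and 30 °C, at unadjusted p = 0.256 and 0.107 in limma's fit.

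Of the large subunit, Mrpl33 encodes the homologue of a small bacterial protein. Its values were 9.93, 9.88, 9.95, 9.72 and 9.82 in 10 °C and 10.15, 10.83, 10.47, 10.38 and 10.19 in 23 °C offspring, and these groups did not overlap. The difference was -0.54 ± 0.16 (SE, n = 5 per group, 1.45-fold lower at 10 °C, limma adjusted p = 0.194). It was 9.92, 10.08, 10.04, 10.49 and 9.74 in 18 °C and 9.72, 10.10, 10.09, 10.37 and 10.28 in 30 °C offspring. The 18 °C group differed from 23 °C by -0.35 ± 0.16 (adjusted p = 0.508), and 18 °C animal 5 lay inside the 23 °C range.

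Mrpl30, also of bacterial descent, was at 8.29, 8.02, 7.64, 8.02 and 8.09 in 10 °C and at 8.43, 8.81, 8.60, 8.39 and 8.26 in 18 °C offspring. In 23 °C it was at 8.25, 8.43, 8.34, 8.47 and 8.34 and in 30 °C at 8.21, 7.89, 8.57, 8.31 and 8.11. Only 10 °C animal 2 reached the range of the 18 °C and 23 °C groups. The difference was -0.48 ± 0.15 between 10 °C and 18 °C (limma adjusted p = 0.44) and -0.35 ± 0.15 between 10 °C and 23 °C (0.351). Mrpl42, which has no bacterial homologue, was at 12.40, 12.03, 12.07, 11.59 and 12.05 in 10 °C and at 12.46, 12.37, 12.46, 12.89 and 12.46 in 18 °C offspring. Here too 10 °C animal 2 alone reached the other group, and the difference was -0.50 ± 0.16 (SE, limma adjusted p = 0.453). In 23 °C offspring Mrpl42 was at 12.36, 12.34, 12.16, 12.58 and 12.08, and in 30 °C offspring at 12.19, 11.98, 12.36, 12.10 and 12.54.

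Mrpl43 stood apart in the controls rather than in the cold group. It encodes a mitochondrial protein without a bacterial homologue. Its values were 7.72, 7.79, 7.88, 7.72 and 7.50 in 23 °C offspring, against 8.15, 8.09, 7.89, 8.35 and 7.91 in 10 °C, 8.13, 8.34, 7.98, 7.77 and 8.05 in 18 °C and 8.41, 8.18, 8.04, 8.07 and 7.96 in 30 °C offspring. Every 10 °C and 30 °C liver lay above every 23 °C liver, and 18 °C animal 5 alone overlapped. The differences from 23 °C were 0.36 ± 0.13, 0.33 ± 0.13 and 0.41 ± 0.13 at 10, 18 and 30 °C (SE, limma adjusted p = 0.3, 0.47 and 0.978), all against the same 5 controls.

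**Figure D4:**
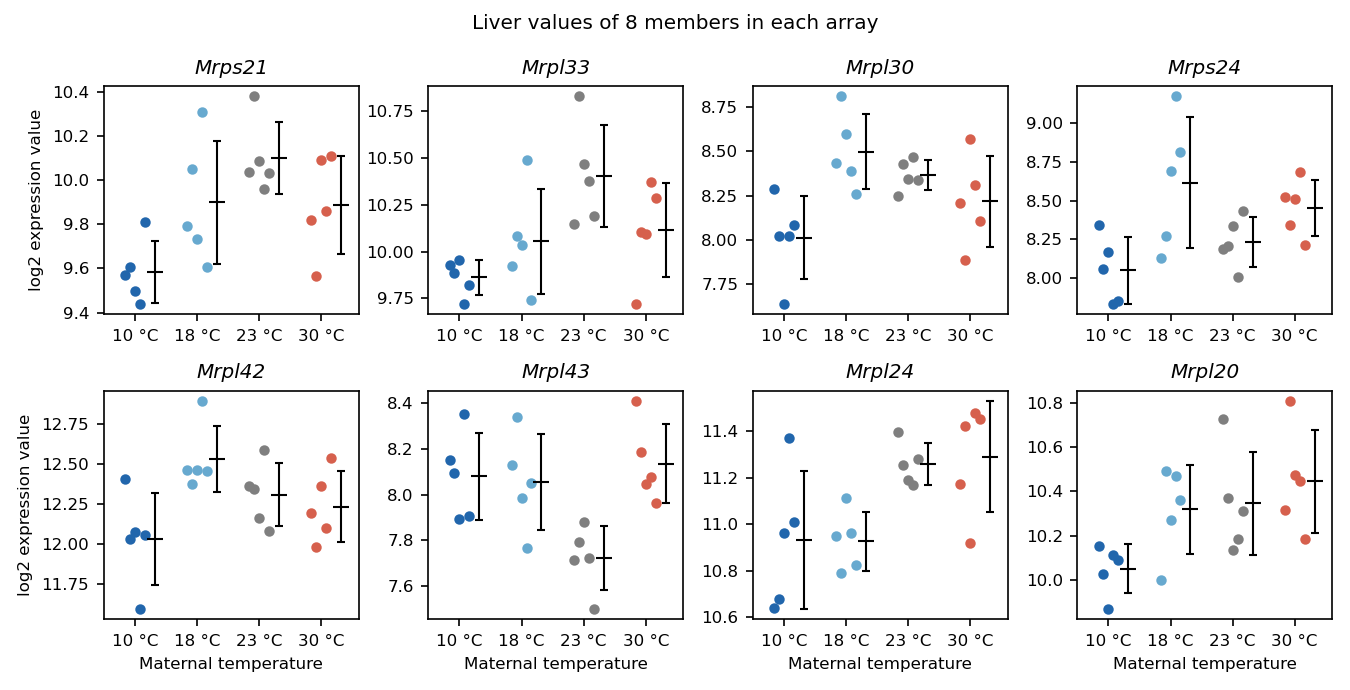
Log2 values (vertical axes, which start at different levels) of 8 genes in each array by maternal temperature (horizontal axes), with the group mean ± SD (n = 5) in black. Mrps21 and Mrpl33 lie lower in every 10 °C than in every 23 °C liver, and Mrpl43 lies higher.

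Along maternal temperature, 5 genes stood at an unadjusted p under 0.05 with a positive slope (6.58%, against 3.85% of all clusters) and 0 with a negative one (0% against 4.3%). The 5 became 3 without 10 °C animal 4, 8 without 18 °C animal 5 or 30 °C animal 4, and 1 with the background control rows as a covariate (1.32%). Mrpl24, whose protein is a homologue of one beside the exit of the peptide tunnel, led with 0.21 ± 0.071 per 10 °C (SE, limma adjusted p = 0.5). Its values were 10.64, 10.68, 10.96, 11.37 and 11.01 in 10 °C and 10.95, 10.79, 11.11, 10.96 and 10.83 in 18 °C offspring, and 11.40, 11.25, 11.19, 11.17 and 11.28 in 23 °C and 11.17, 11.42, 10.92, 11.48 and 11.45 in 30 °C offspring. The 18 °C and 23 °C groups did not overlap (-0.33 ± 0.14, adjusted p = 0.495). Mrpl20, whose bacterial homologue acts early in building the large subunit, followed with 0.19 ± 0.068 per 10 °C.

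Mrpl20 was at 10.15, 10.03, 9.87, 10.11 and 10.09 in 10 °C and at 10.32, 10.81, 10.48, 10.45 and 10.19 in 30 °C offspring, without overlap. The difference was -0.40 ± 0.14 (SE, n = 5 per group, limma adjusted p = 0.677). The 18 °C values were 10.00, 10.49, 10.27, 10.47 and 10.36 and the 23 °C values 10.73, 10.37, 10.14, 10.18 and 10.31, both overlapping with the coldest group. Mrpl52, Mrps21 and Mrpl54 were the other 3 with the smallest p, at slopes of 0.20, 0.17 and 0.14 and adjusted p = 0.508, 0.585 and 0.601, and Mrpl54 is the gene that may not be above background.

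Other members differed by similar amounts without passing. Mrpl39 (0.35 ± 0.15 SE), which resembles a tRNA synthetase, and Mrpl37 (0.34 ± 0.16) had higher values at 10 °C than at 23 °C. Between 18 °C and 23 °C the nearest were Mrpl35 (0.36 ± 0.12, adjusted p = 0.397), Mrpl22, a homologue of a protein lining the peptide tunnel (0.41 ± 0.16, 0.47), and Mrpl57 (-0.34 ± 0.14, 0.485). Between 30 °C and 23 °C Mrpl22 stood at 0.34, Mrpl37 at 0.31, Mrpl49 at -0.25 and the membrane anchor Mrpl45 at -0.28, each at adjusted p = 0.978. Between 18 °C and 30 °C Mrpl36 (0.29 ± 0.11), without overlap, and Mrpl49 (0.31 ± 0.12) were nearest, at adjusted p = 0.507 and 0.528. Mrpl36 averaged 5.01 at 18 °C and 4.72 at 30 °C, where the negative control rows averaged 4.59, so its lower side is near background and its difference is uncertain. Mrpl1, of the stalk that guides spent tRNA out, was at -0.29 there and at 0.19 between 10 °C and 18 °C. The last places were taken by Mrpl50 (0.11) and Mrpl41 (0.13) between 10 °C and 18 °C and Mrpl9 (0.23) between 10 °C and 30 °C.

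Few of the genes had groups without overlap. In 10 °C and 23 °C offspring these were 3 of 76, Mrps21, Mrpl33 and Mrpl43 (3.95%, against 2.45% of all clusters). In each other pair it was 1 (1.32%), Mrpl24 between 18 °C and 23 °C (1.81% of all clusters), Mrpl43 between 30 °C and 23 °C (0.752%), Mrpl20 between 10 °C and 30 °C (0.982%), Mrpl21 between 10 °C and 18 °C (1.42%) and Mrpl36 between 18 °C and 30 °C (1.41%). Mrpl21 was named here because its groups did not overlap.

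Of 4 further large subunit genes, Mrpl12, of the stalk that recruits translation factors and also a partner of the mitochondrial RNA polymerase, averaged 10.16 ± 0.13, 10.10 ± 0.25, 10.05 ± 0.12 and 10.14 ± 0.23 (SD, n = 5) at 10, 18, 23 and 30 °C. Mrpl10, which anchors that stalk, averaged 8.11, 8.27, 8.04 and 8.04. Mrpl3, close to the site where peptide bonds form, averaged 8.07 ± 0.21, 8.15 ± 0.12, 8.28 ± 0.35 and 8.34 ± 0.29. Mrpl32, which is matured by the protease Afg3l2 before it joins the ribosome, averaged 8.12, 8.34, 8.40 and 8.09. In each of these genes the groups overlapped.

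The rest of the mitochondrial translation pathway gave no call either, with 0 genes at an adjusted p under 0.05 in every list and every comparison. Of 6 measured ribosomal proteins sought in a list of other symbols, which also held Mrpl57 and Mrpl58, 3 lay higher and 3 lower at 10 °C than at 23 °C. The small subunit protein Ptcd3 was at 8.07 against 8.42 (-0.36 ± 0.15 SE, limma adjusted p = 0.344) and Dap3 at 11.02 against 10.81 (0.21 ± 0.15). Of 12 translation factors 5 lay higher and 7 lower, with the elongation factor Gfm1 at -0.24 ± 0.14. Of 27 genes for ribosome assembly and rRNA processing 18 lay higher and 9 lower, with a median of 0.10. Among them were the rRNA methyltransferase Mrm3 (0.57 ± 0.19, adjusted p = 0.248), the GTPase Mtg2 (0.45 ± 0.18), Rcc1l (-0.50 ± 0.19) and the methyltransferase Nsun4 (-0.44 ± 0.18).

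Of 16 genes for mitochondrial transcription and RNA maturation 14 lay lower at 10 °C than at 23 °C and 2 higher, with a median of -0.20 and 0 at an unadjusted p under 0.05. The RNA processing subunit Trmt10c was at -0.33 ± 0.17 (SE) and Tfam, which packages mitochondrial DNA, at -0.34 ± 0.26. Of 8 regulators of such genes 4 lay higher and 4 lower, with differences from -0.76 to 0.40. Nrf1, the factor of the NRF1 motif above, was at 7.30 in 10 °C against 6.90 in 23 °C offspring (0.40 ± 0.18 SE, limma adjusted p = 0.379), Gabpa at 0.18 ± 0.16 and Yy1 at -0.01 ± 0.19.

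Medians of the cytosolic ribosome and of nuclear-encoded respiratory chain subunits, which are made in the cytosol and assemble with the products of mitochondrial translation, are given side by side with those of the mitochondrial ribosome. At 10, 18 and 30 °C, each against 23 °C, the 54 cytosolic ribosomal proteins had medians of -0.12, -0.13 and 0.093, and the 76 mitochondrial ones -0.12, 0.019 and -0.030. The 81 nuclear-encoded respiratory chain subunits stood at -0.15, 0.0020 and -0.11. These differences between lists were not tested, and the 3 comparisons share their control arrays.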

How the data were processed

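Liver RNA of 20 male offspring was measured on Affymetrix arrays, 1 per mouse. The deposited table holds log2 values that the authors made with RMA, per the submitters' processing notes, which also name the Transcriptome Analysis Console. Their versions and settings and the build are not given in the sources used here. RMA as commonly run includes quantile normalisation, which hides a shift of all transcripts together, and the number of arrays limits the precision. Array medians lay between 4.46 and 4.56, arrays correlated at 0.987 to 0.993, and no pair was identical. Of 28846 rows, 6640 control rows were left out of the tests and 22206 transcript clusters kept. The platform annotation gave 1 symbol to 19572, several to 0 and none to 2634. All 76 members matched RefSeq by gene identifier, and 0 symbols changed.

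Linear models with a mean for every group were run on all 20 arrays in limma 3.58.1 (R 4.3.3), with moderated variances from eBayes. They gave 6 contrasts, an F-test and, separately, a slope on maternal temperature. Tests were two-sided, with Benjamini-Hochberg adjustment over all clusters and a threshold of 0.05. Data with 22206 clusters were simulated, with some clusters changed at 10 °C by 0.5, 1, 2 or 3 in log2, all in the same data. In 10 °C against 23 °C the fit called 11, 38, 50 and 49 of 50 such clusters, in that order, and 4 unchanged ones. The members and lists were chosen with earlier results of these data known. Named were, in each pair of groups, the 3 members higher and 3 lower with the smallest p, the 5 with the smallest p in the F-test and for the slope, and 10 members fixed by name. Of the other lists, genes with the smallest p were named, and a few by their function. Lists for mitochondrial translation, assembly, tRNA synthetases, transcription, regulators and liver cell types were described by counts and medians, with no set test. Of the marker lists, hepatocytes and macrophages are described in the report and the rest in the closing section. Alternatives were another variance model, fits of 2 groups, the animal number as a block, background control rows as a covariate, median centring, quantile normalisation of clusters alone, dim clusters left out, the mean in place of the median, and each array left out.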

Additional observations from a re-analysis of the deposited data

Results flagged for a closer look

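Among 140 groups of 5 values (the 34 named genes and their list mean in 4 groups), 3 held a liver set apart from the other 4 by Dixon's test at the 95% level, where chance gives about 1 in 20 groups. Mrpl42 was at 12.89 in 18 °C animal 5, against 12.37 to 12.46 in the other 18 °C livers. Mrps12 was at 7.79 in 23 °C animal 2, against 7.28 to 7.42 in the other controls. Mrps18c was at 9.63 in 18 °C animal 7, against 9.93 to 10.02 in the rest of its group.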

How the results depend on the processing

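The count of members called was 0 in all 27 alternative fits of each pairwise comparison, 20 of which left out 1 array. It was also 0 in the 26 alternatives of the F-test and the slope, to which a fit of 2 groups does not apply. The smallest adjusted p among members in any pair of groups was 0.147, for 10 °C against 23 °C without 23 °C animal 23. Leaving out each array, the median differences ran from -0.13 to -0.077 (10 against 23 °C), -0.0060 to 0.047 (18 against 23 °C), -0.051 to -0.0051 (30 against 23 °C), -0.055 to -0.021 (10 against 30 °C), -0.12 to -0.082 (10 against 18 °C) and 0.017 to 0.065 (18 against 30 °C). With the animal number as a replicate block, some median differences moved by more than the spread between arrays. They became -0.19, -0.048 and -0.11 for 10, 18 and 30 against 23 °C. At 23 °C that fit rests on animals 1 and 2 (list means 0.033 and 0.14), since numbers 15, 17 and 23 occur only there. The numbers are not shown to pair mice, since only 1 of 11 pairs with the same number had a correlation of deviations above 0.1 (-0.151 to 0.11). No named gene passed or changed sign in its own comparison under these alternatives. Without single arrays the count of all clusters called between 10 °C and 23 °C ran from 0 to 22. On signal, only Mrpl54 lay under the negative control rows in mean, and Mrpl36 lay close to them. Small differences are limited by the number of arrays. In simulated data of 10 °C against 23 °C, those of 0.5 were called in 11 of 50 clusters. The same data held clusters changed by up to 3, which eases the adjusted threshold. The share may therefore be lower in the measured data, where 2 clusters passed.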

Other observations

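Mitochondrial aminoacyl-tRNA synthetases, which load the tRNAs that the ribosome uses, lay higher in 18 °C than in 23 °C offspring in 14 of 19 genes, with a median difference of 0.19. Rars2 was at 6.14 against 5.47 (0.67 ± 0.23 SE, limma adjusted p = 0.389) and Gatb at 6.55 against 6.21 (0.34 ± 0.15), and 0 of the 19 passed. Against 23 °C their median was 0.046 at 10 °C and 0.062 at 30 °C, and the 3 comparisons share their controls.

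Markers of other liver cells gave 0 genes at an adjusted p under 0.05 in every comparison. At 10 °C against 23 °C, 7 of 10 endothelial markers lay higher (median 0.20), 8 of 9 of stellate cells and fibroblasts (0.062), 6 of 9 of lymphocytes (0.053, with 8 of the 9 below 3.90 in mean) and 1 of 5 of cholangiocytes (-0.17, with 3 of the 5 below 3.90). Both measured red blood cell genes lay lower (-0.36).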
